A study of Mus musculus with 24 samples.

Results

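The AMPA receptor set comprised 10 genes of the 33902 symbols in the snRNA-seq count table. They were the 4 receptor subunits Gria1, Gria2, Gria3 and Gria4, and 6 auxiliary proteins, namely the transmembrane AMPA receptor regulatory proteins (TARPs) Cacng2, Cacng3, Cacng4 and Cacng8 and the cornichon homologs Cnih2 and Cnih3. They were chosen by name, with earlier results of these data known, and each was followed in the 17 cell types of the table and between the strains. AMPA receptors are tetrameric glutamate-gated cation channels that carry most fast excitatory transmission in the hippocampus, and which subunits are assembled sets calcium permeability and kinetics. Receptors with the edited Gria2 subunit pass little calcium. TARPs and cornichons bind the receptor, help it to reach the synapse and slow its closing, and the TARP encoded by Cacng8 is known for its abundance in hippocampal neurons.

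The libraries came from nuclei of microdissected ventral hippocampus of adult male mice, aged 10 to 16 weeks, of 2 inbred strains, C57BL/6J (B6, labelled BL6) and DBA/2J (D2, labelled DBA), with no treatment named in the labels. Tissue of about 2 animals was pooled per replicate, with 2 snRNA-seq and 2 snATAC-seq libraries per strain, and nuclei for snRNA-seq were sorted on the neuronal nuclear protein NeuN so that both neurons and other cells were kept. The 16 methylation samples of the series are not analysed here. The libraries of each strain are called 2 and 3, as in the tables, and could be placed in a strain but not on a single sample of it, so that n counts libraries throughout.

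The snRNA-seq table held 30880 nuclei, and B6 libraries 2 and 3 totalled 54045991 and 56452272 counts and D2 libraries 2 and 3 totalled 52113610 and 43048686. A column (1 cell type in 1 library) held from 45 nuclei and 139713 counts to 1489 nuclei and 11352265 counts. The 8 excitatory types (Exc), 3 inhibitory types (Inh), Cajal-Retzius cells (CR) and 5 non-neuronal types (NN: astrocytes, oligodendrocytes ODC, their precursors OPC, microglia MGC and vascular leptomeningeal cells VLMC) keep the names of the deposited table. Summed levels of marker genes, in counts scaled to a column total of 1000000 (CPM), were highest in the type of that name for CA1, CA3, MGE, CGE, Cajal-Retzius, astrocyte, oligodendrocyte, OPC, microglia and VLMC lists. They were not for 3 lists, since Cajal-Retzius cells exceeded Exc-DG for the dentate granule list (362 against 333 CPM) and Inh-Lamp5 for the Lamp5 list, whereas Exc-Gpc6 exceeded Exc-ENT for the entorhinal list. Cajal-Retzius cells were unevenly sampled, with 309 nuclei in B6 and 91 in D2. D2 library 3 was the shallowest, and leaving it out reduced the strain differences that passed the test from 42 to 19, of which 18 were among the 42. The number of all transcripts that passed fell too, in Exc-DG from 6382 to 4679.

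Gene positions are those of the GENCODE vM21 annotation of GRCm38. The subunit genes span Gria1 at chr11:57011387-57330244 on the plus strand, Gria2 at chr3:80681450-80802835 on the minus strand, Gria3 at chrX:41400854-41678601 on the plus strand and Gria4 at chr9:4417896-4796234 on the minus strand. The TARP genes span Cacng2 at chr15:77991748-78120028 (minus), Cacng3 at chr7:122670492-122769393 (plus), Cacng4 at chr11:107732357-107794557 (minus) and Cacng8 at chr7:3390683-3415648 (plus). The cornichon genes span Cnih2 at chr19:5092868-5098521 (minus) and Cnih3 at chr1:181352628-181460641 (plus). Cacng2, Cacng4 and Cacng8 overlap antisense or processed transcripts on the other strand (A730060N03Rik, Gm11650 and Gm44151), Cacng3 overlaps Gm44749 on the other strand, and Cnih2 overlaps the end of Yif1a, which is transcribed from the other strand. Cnih3 spans 2900069G24Rik on its own strand and the pseudogenes Gm16547 and Gm16539 on the other, and Gria2, Gria3, Gria4 and Cacng8 each hold a miRNA gene on their own strand. Whether the counting used strand was not given in the sources used here, so counts in those overlaps are uncertain.

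Promoter sequences were taken from RefSeq (GRCm38.p6) for 7 of the 10 genes, as the 250 bases before the RefSeq start, on the strand of the gene. That start lies inside the GENCODE span given above for Cacng2, Cacng3 and Cacng8, so that their windows lie within the gene by that annotation. Those of Gria1, Gria3 and Cacng4 were not in that table. The 3 shown are Cnih3, the gene that differed between strains in the most neuronal types, Gria2, the subunit with the highest level per length, and Cnih2, whose level varied least between cell types. Capitals mark the GC box, searched as GGGCGG on both strands and printed here as its reverse complement CCGCCC.
Cnih3, chr1:181352378-181352627, plus strand: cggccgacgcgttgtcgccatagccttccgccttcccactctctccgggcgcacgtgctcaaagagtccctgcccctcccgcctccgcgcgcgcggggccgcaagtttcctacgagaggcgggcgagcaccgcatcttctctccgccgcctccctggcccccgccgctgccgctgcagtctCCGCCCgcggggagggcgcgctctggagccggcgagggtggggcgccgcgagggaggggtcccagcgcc
Gria2, chr3:80802836-80803085, minus strand: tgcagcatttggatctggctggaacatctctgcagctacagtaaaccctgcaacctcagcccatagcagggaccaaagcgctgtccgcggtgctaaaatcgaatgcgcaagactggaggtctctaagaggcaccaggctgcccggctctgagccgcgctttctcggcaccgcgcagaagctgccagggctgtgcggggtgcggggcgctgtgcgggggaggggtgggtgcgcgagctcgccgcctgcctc
Cnih2, chr19:5098522-5098771, minus strand: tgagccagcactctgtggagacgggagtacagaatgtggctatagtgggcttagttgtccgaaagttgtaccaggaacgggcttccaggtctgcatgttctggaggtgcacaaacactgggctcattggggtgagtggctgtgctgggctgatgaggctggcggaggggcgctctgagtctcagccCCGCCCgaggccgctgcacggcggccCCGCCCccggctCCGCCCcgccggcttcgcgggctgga
The GC content was 76% for Cnih3, 64.8% for Gria2 and 65.6% for Cnih2, against a median of 52.4% over the 32851 promoter windows of the table. The GC box occurred in 2 of the 7 windows, in Cnih3 69 bases before the start and in Cnih2 at 64, 38 and 26 bases before it, and in 32.7% of all windows. CAGCTG, an E box, occurred in Cacng2 (209 bases before the RefSeq start) and Cacng3 (48 bases before it), in windows inside the GENCODE spans of these genes, and in 13.0% of all windows. TATAAA (12.4% of all windows), TGACGTCA (1.55%) and TCAGCACC (1.32%) occurred in none of the 7. No 2 of these matches overlapped, and a match is a description of letters and not of binding.

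Levels across cell types were first described as CPM of the counts in the 24691 symbols detected in both strains, because 8204 symbols had counts in D2 only and 960 in B6 only. Values are the mean ± SD of the 4 libraries. The cell types were defined by clustering the same transcripts, so differences between types are described without a test, and neighbours in the order are said to overlap where their ranges over the 4 libraries do.

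Gria1 and Gria2, the subunits of the main hippocampal receptor, were high in pyramidal and granule cells, but their orders differed. Gria1 was highest in Inh-MGE (3169 ± 159 CPM, n = 4), followed by Inh-Lamp5 (2798 ± 287) and Exc-CA1-Galntl6 (2787 ± 132), with overlapping ranges. It was 2406 ± 67.0 in Exc-CA3, 2278 ± 122 in Exc-DG, 1622 ± 58.4 in Exc-CA1-Fras1, 1477 ± 192 in Exc-CA1-Camk2d, 1122 ± 99.1 in Inh-CGE and 1083 ± 54.8 in Cajal-Retzius cells, and then 547 ± 114 in Exc-ENT, 401 ± 88.0 in Exc-Cdh12 and 322 ± 8.42 in Exc-Gpc6. In the 5 non-neuronal types Gria1 ranged from 127 ± 54.7 (oligodendrocytes) to 208 ± 123 (microglia), an order that differed between strains, with microglia highest in B6 (303 CPM) and OPC highest in D2 (144 CPM, against 113 in microglia). The level in Inh-MGE was 25.0 times the lowest. Gria2 was highest in Exc-CA3 (3081 ± 135) and Exc-CA1-Galntl6 (2863 ± 99.3), which overlapped, and reached 2177 ± 179 in astrocytes and 1790 ± 154 in OPC. Inh-Lamp5 had the lowest neuronal level of Gria2 (863 ± 68.7), below every library of Inh-MGE (1310 ± 43.6), and oligodendrocytes the lowest of all (284 ± 85.4). For each of these genes 12 of the 16 neighbouring pairs in the order overlapped.

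Gria3 and Gria4, the other two subunits, followed other orders. Gria3 was highest in Exc-CA1-Fras1 (1060 ± 29.0 CPM) and Inh-MGE (912 ± 40.4), whose libraries did not overlap, and was 249 ± 24.1 in Inh-Lamp5 and 143 ± 5.38 in Inh-CGE, so that inhibitory types lay near both ends of the neuronal order. Cajal-Retzius cells had 82.8 ± 17.8 and astrocytes 57.9 ± 24.5, whereas OPC had 482 ± 17.1. Gria4 was highest in Inh-MGE (1852 ± 85.3) and above every library of Inh-Lamp5 (1366 ± 97.8). It was 1215 ± 178 in Exc-Cdh12, 1063 ± 48.1 in Inh-CGE, 919 ± 42.8 in OPC and 891 ± 35.2 in Exc-Gpc6, and only 157 ± 3.10 in Exc-DG, the lowest neuronal level. Astrocytes had 34.4 ± 9.48, and the level in Inh-MGE was 53.9 times that.

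Among the TARPs, Cacng2, which encodes stargazin, was highest in Inh-MGE (144 ± 9.20 CPM), Inh-CGE (118 ± 6.99) and Exc-Gpc6 (105 ± 6.88). Its level differed between the CA1 types, with 76.9 ± 6.02 in Exc-CA1-Camk2d, 33.7 ± 3.03 in Exc-CA1-Galntl6 and 9.96 ± 0.485 in Exc-CA1-Fras1, the last within the range of microglia (1.76 to 17.8). Cacng3 was highest in Exc-Cdh12 (212 ± 18.9) and Exc-DG (151 ± 9.18), without overlap, and lowest among excitatory types in Exc-CA3 (20.1 ± 7.19). Cacng8 was highest in Exc-CA1-Galntl6 (177 ± 15.7), Exc-DG (169 ± 12.5) and Exc-CA1-Fras1 (168 ± 7.73), which overlapped, and was 141 ± 16.5 in Exc-CA3 and 32.8 ± 5.79 in Exc-Gpc6. Cacng4 was at 369 ± 32.2 in OPC, 5.65 times the next type, VLMC (65.4 ± 20.6). In neurons it reached 36.5 ± 3.29 in Inh-Lamp5, 32.9 ± 6.82 in Inh-MGE and 27.5 ± 1.89 in Inh-CGE, and at most 11.3 ± 2.88 in an excitatory type (Exc-ENT), with 1.11 ± 0.197 in Exc-DG, so that OPC had 333 times the lowest level.

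The cornichon homologs, which act on the same receptors, were unlike each other. Cnih2 ranged only from 33.2 ± 3.81 CPM (Exc-CA1-Galntl6) to 15.8 ± 4.18 (OPC), a 2.10-fold span, and all 16 neighbouring pairs overlapped. Cnih3 spanned 22.8-fold, from 108 ± 18.5 in Exc-DG, 86.5 ± 15.2 in Exc-CA1-Galntl6 and 84.5 ± 21.1 in Exc-CA1-Fras1 to 12.04 ± 2.10 in Exc-CA3, 5.15 ± 2.36 in Inh-Lamp5 and 4.73 ± 1.25 in OPC. In plain CPM the highest level of the set was that of Gria1, 3169 in Inh-MGE. Levels were also divided by gene span in kb, because introns were counted, but whether counts scale with span was not tested. Per kb, Gria2 had the highest level of the set, 25.4 CPM per kb in Exc-CA3. On that scale Gria1 reached 9.94 and Gria4 4.90 in Inh-MGE, Cacng8 7.07 and Cnih2 5.86 in Exc-CA1-Galntl6, Cacng4 5.94 in OPC and Cnih3 0.998 in Exc-DG.

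**Figure D1:**
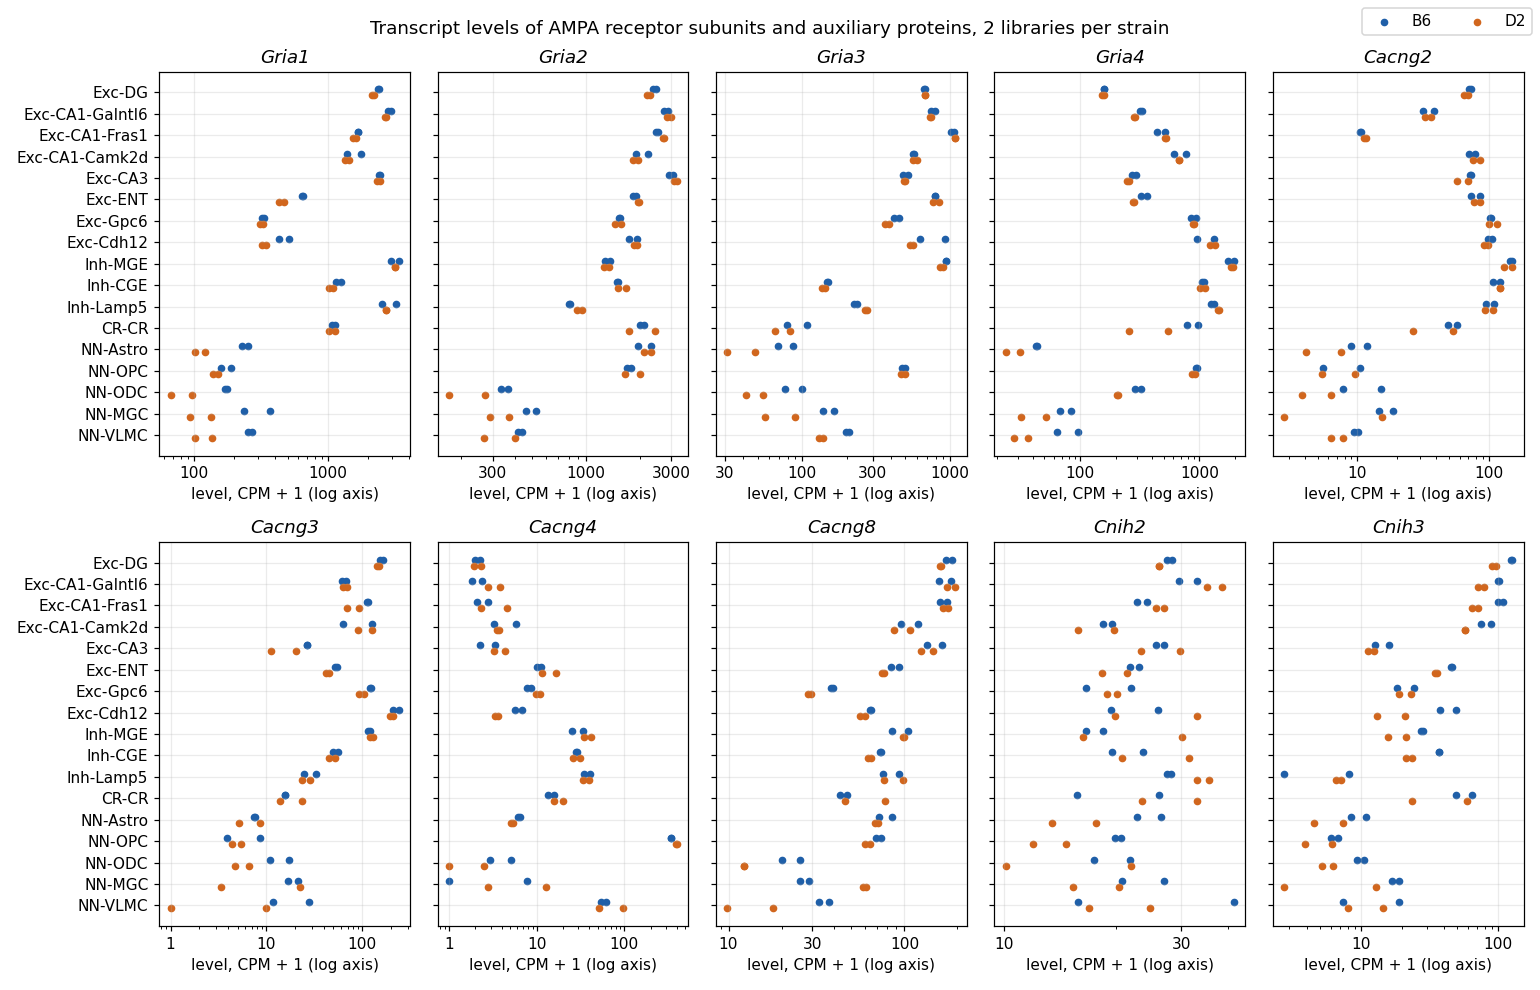
Level of each of the 10 genes (x axis, CPM + 1, log axis) in the 17 cell types (y axis), with 1 point per library, 2 per strain, B6 in blue and D2 in orange. Cnih2 stays between 9.10 and 40.5 CPM in all columns, whereas Cacng4 sits above 338 CPM in OPC and at or below 95.5 CPM in every other type.

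Averaged over types within each library, on the log2(CPM + 1) scale, 5 genes were higher in excitatory than in inhibitory types in all 4 libraries. The differences were 0.88 ± 0.04 for Gria2, 1.03 ± 0.06 for Gria3, 0.58 ± 0.15 for Cacng3, 0.31 ± 0.08 for Cacng8 and 1.53 ± 0.28 for Cnih3 (SD, n = 4). Another 4 genes were lower in excitatory types in all 4 libraries, with differences of -0.94 ± 0.10 for Gria1, -1.65 ± 0.07 for Gria4, -1.07 ± 0.02 for Cacng2 and -2.96 ± 0.15 for Cacng4. Cnih2 differed by -0.02 ± 0.24, less than the spread between libraries, and its sign differed under TMM scaling.

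The share of Gria2 among the counts of the 4 subunit genes needs no scaling between libraries, although it compares genes of different length. It averaged 46.0 ± 2.05% over the 17 types (SD over 4 libraries). It was highest in astrocytes, 89.2 ± 4.06%, where the strains did not overlap, with 85.4 and 86.0% in B6 and 92.2 and 93.2% in D2. Of 6 neuronal markers, 4 were lower in D2 astrocytes, and their part in this difference was not tested. Such a difference was not particular to astrocytes. In Exc-ENT the share was 51.0 and 51.2% in B6 and 56.7 and 55.7% in D2. It was also higher in D2, without overlap, in Exc-CA3, Exc-CA1-Fras1, Exc-CA1-Galntl6, Exc-Cdh12, Inh-CGE, Cajal-Retzius cells and VLMC. In Exc-DG it was lower in D2 (42.8 and 43.4% against 42.7 and 42.5%). Over all types the share of Gria2 was lowest in Inh-Lamp5, 16.4 ± 1.38% (pooled counts, exact Clopper-Pearson 95% interval 15.6 to 16.7%, counting error only), and Inh-MGE, 18.1 ± 0.48%. The range over the remaining 14 types was 38.8% (oligodendrocytes) to 54.1% (microglia, 45.9 and 51.1% in B6 and 61.7 and 57.7% in D2, without overlap), so that the third inhibitory type, Inh-CGE, with 40.0%, stood apart from the other two. The largest share in Inh-Lamp5 and Inh-MGE was Gria1, with 53.0% and 43.7%. Gria4 contributed 35.5% in oligodendrocytes, 29.4% in Exc-Cdh12, 28.4% in Exc-Gpc6, 27.5% in OPC and 2.88% in Exc-DG.

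**Figure D2:**
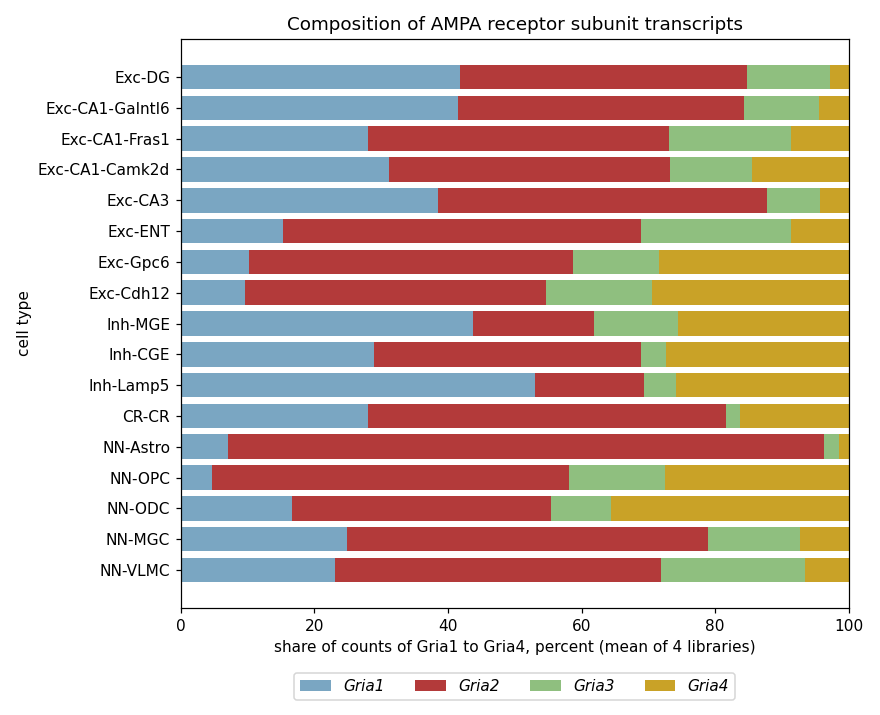
Share of each subunit gene in the summed counts of Gria1 to Gria4 (x axis, percent, mean of 4 libraries) by cell type (y axis). The Gria2 segment is shortest in Inh-Lamp5 (16.4%) and Inh-MGE (18.1%) and longest in astrocytes (89.2%).

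Differences between the strains were then tested in each cell type, as D2 minus B6, with edgeR's quasi-likelihood test and Benjamini-Hochberg adjustment over all transcripts of that type. A gene is said to have changed where the adjusted p was under 0.05. Of 170 gene and cell type pairs, 153 passed the filter on low counts. The 17 that did not were Cacng4 in 6 types, Cnih3 in 4, Cacng3 in 3, and Cacng2 and Cnih2 in 2 each. Of the 153, 5 passed only through the libraries of a single strain, namely Cacng2, Cacng3 and Cnih3 in oligodendrocytes and Cacng8 in VLMC through B6 and Cacng4 in Exc-CA1-Galntl6 through D2, so that the filter itself favoured a difference in that direction. In all, 42 changed, of which 41 were lower in D2 and 1 was higher, where 22.1% of all transcript tests over the 17 types changed and 9.25% were lower in D2. The first of these shares includes symbols counted in D2 only, and with the test limited to symbols counted in both strains, as all 10 genes are, 39 of the 153 changed, 38 of them lower in D2, against 14.6% of all tests and 8.40% lower. In neurons the count was 25 of 113, all lower in D2, and in non-neuronal types 17 of 40, 16 of them lower. The share of all transcripts that changed was not computed for these classes. By type it ranged from 4.26% (Cajal-Retzius cells) to 36.0% (Exc-DG) in neurons and from 7.87% (VLMC) to 26.2% (astrocytes) elsewhere. The neuronal count is therefore not read as particular to the set. A total of 56 pairs had an unadjusted p under 0.05, and 123 of the 153 estimates were below 0, or 103 by the plain ratio of the CPM levels. Fitted values lay below that ratio by a median of 0.06 over cell types on the log2 scale, with the difference ranging from -0.11 to 0.07, and none of the 42 changes had a ratio of the other sign. The median log2 fold change of all transcripts by type was 0.009 to 0.056, or -0.005 to 0.013 on symbols counted in both strains. Their share below 0 was not computed. The 153 estimates share 4 libraries and are not independent. In all 42 the libraries of the strains did not overlap, but neither did they in 89 of the 153 pairs tested. With 2 libraries a strain such non-overlap adds little to a call. DESeq2, fitted to the same counts, called 18 of the 42. It also called fewer of all transcripts than edgeR in every type, such as 4835 of 24075 against 6382 of 17723 in Exc-DG.

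The counts by cell type are given with the share of all transcripts that changed there, D2-only symbols included. In the excitatory types, 4 of 10 genes changed in Exc-DG (36.0% of all transcripts), 3 of 10 in Exc-CA1-Galntl6 (35.0%), 3 of 9 in Exc-CA1-Fras1 (28.5%), 1 of 9 in Exc-CA1-Camk2d (19.4%), 2 of 10 in Exc-CA3 (32.1%), 5 of 10 in Exc-ENT (28.0%), 2 of 10 in Exc-Gpc6 (19.7%) and 2 of 9 in Exc-Cdh12 (8.44%). Among the other neurons, 1 of 10 changed in Inh-MGE (21.0%), 1 of 10 in Inh-CGE (15.1%), 0 of 9 in Inh-Lamp5 (12.1%) and 1 of 7 in Cajal-Retzius cells (4.26%). In Inh-Lamp5 no gene had an unadjusted p under 0.05 in edgeR, and DESeq2 called none. In the non-neuronal types, 5 of 10 changed in astrocytes (26.2%), 6 of 9 in oligodendrocytes (19.0%), 4 of 7 in microglia (10.4%), 0 of 8 in OPC (16.2%; 2 had an unadjusted p under 0.05, and DESeq2 called none) and 2 of 6 in VLMC (7.87%). On symbols counted in both strains the shares of all transcripts were lower, at 25.6% in Exc-DG, 26.0% in Exc-CA1-Galntl6, 20.2% in Exc-CA1-Fras1, 9.40% in Exc-CA1-Camk2d, 21.9% in Exc-CA3, 18.6% in Exc-ENT, 12.5% in Exc-Gpc6, 3.30% in Exc-Cdh12, 11.8% in Inh-MGE, 8.13% in Inh-CGE, 8.43% in Inh-Lamp5 and 2.20% in Cajal-Retzius cells. They were 18.7% in astrocytes, 14.2% in oligodendrocytes, 8.13% in microglia, 11.3% in OPC and 5.82% in VLMC. The counts of the set then fell by 1 each in Exc-CA3, Exc-Cdh12 and astrocytes. With 6 to 10 genes tested per type, 1 call moves a share by 10 percentage points or more, and whether a type lies above or below its background depends on the symbols included in several types, such as Exc-CA1-Camk2d and Inh-CGE.

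**Figure D3:**
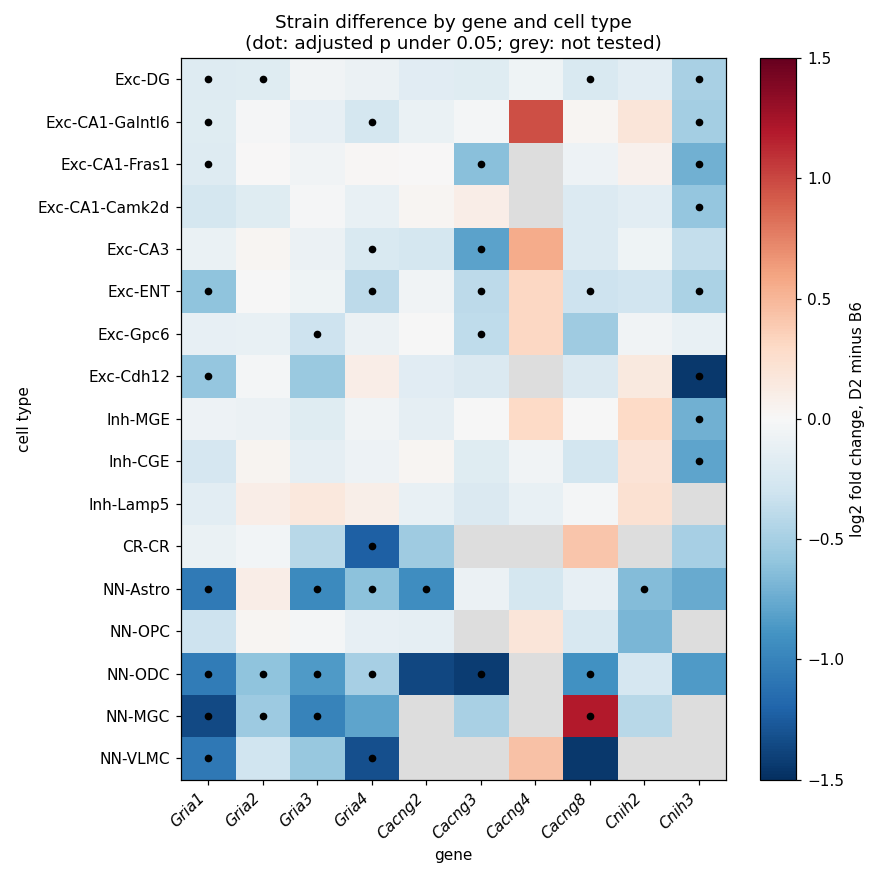
Fitted log2 fold change, D2 minus B6, of the 10 genes (x axis) in the 17 cell types (y axis), with blue for lower and red for higher in D2, a dot where the adjusted p was under 0.05 and grey where the gene did not pass the filter. Dots are most frequent in the Gria1 column (9 of 17) and the Cnih3 column (8 of 13), and none is in the Cacng4 column.

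Cnih3 was lower in D2 in 8 of the 11 neuronal types in which it was tested. In Exc-DG it was 122 and 125 CPM in B6 and 94.8 and 89.0 in D2 (log2 fold change -0.49, SE 0.08, edgeR adjusted p = 0.000148). Exc-CA1-Galntl6 had 98.1 and 101 in B6 and 69.9 and 77.4 in D2 (-0.50, SE 0.08, adjusted p = 0.000148), and Exc-CA1-Fras1 had 98.4 and 106 against 69.5 and 63.6 (-0.72, SE 0.11, adjusted p = 1.2e-05). In these 3 types every D2 library was below every B6 library, which alone says little, since the strains did not overlap in 89 of the 153 pairs tested. The change was called there by DESeq2 as well and in every other setting tried. It was also called in Exc-CA1-Camk2d (87.9 and 73.2 against 56.5 and 56.0 CPM), with a log2 fold change of -0.58 (SE 0.13, adjusted p = 0.00801), and in Exc-ENT (44.4 and 44.9 against 33.8 and 34.7), with -0.47 (SE 0.14, adjusted p = 0.00818). The largest estimate was in Exc-Cdh12, where the level was 36.4 and 48.0 CPM in B6 (19 and 52 counts) and 19.7 and 11.997 CPM in D2 (25 and 9 counts; -1.45, SE 0.33, adjusted p = 0.0108).

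The decrease of Cnih3 was not confined to excitatory cells. In Inh-CGE B6 had 35.9 and 35.7 CPM and D2 22.6 and 20.2 (-0.79, SE 0.22, edgeR adjusted p = 0.0184), and in Inh-MGE the values were 27.4 and 26.2 against 14.8 and 20.1 (-0.72, SE 0.20, adjusted p = 0.0145). DESeq2 did not call these 2 changes or those in Exc-CA1-Camk2d, Exc-ENT and Exc-Cdh12. Each of the 5 was also lost when 1 library was left out, namely D2 library 2 in Inh-MGE and Exc-ENT, either D2 library in Exc-CA1-Camk2d, B6 library 3 or either D2 library in Inh-CGE, and B6 library 3 in Exc-Cdh12. In Inh-CGE edgeR called no transcript without D2 library 2 or D2 library 3 (2375 and 2049 had an unadjusted p under 0.05), so those 2 losses are not particular to Cnih3. The estimate was below 0 but not called in Exc-CA3 (-0.35, adjusted p = 0.222), Exc-Gpc6 (-0.11, adjusted p = 0.835), Cajal-Retzius cells (-0.49, adjusted p = 0.694), astrocytes (-0.75, adjusted p = 0.114) and oligodendrocytes (-0.85, adjusted p = 0.196). The median over the 13 tested types was -0.58, and the strain difference of Cnih3 was not found to differ between cell types (interaction test, adjusted p = 0.36).

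**Figure D4:**
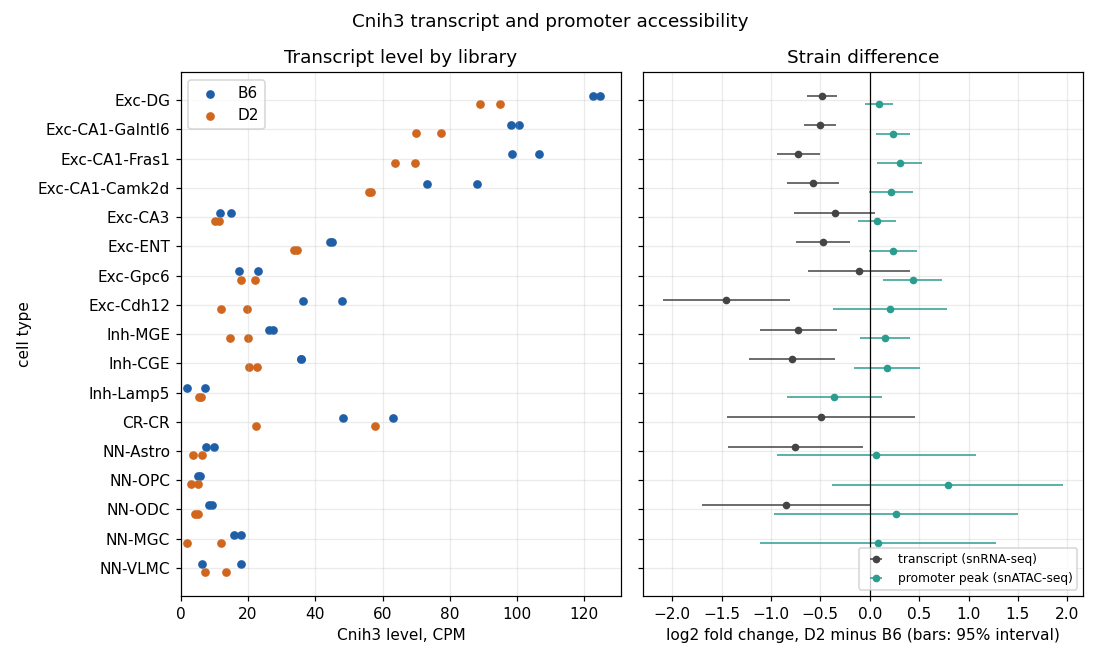
Left, level of Cnih3 (x axis, CPM) in each library by cell type (y axis), B6 in blue and D2 in orange. Right, log2 fold change, D2 minus B6, of the transcript (grey) and of its promoter peak (green), with 95% intervals from the standard error; all transcript estimates lie below 0, and the promoter estimates lie above 0 in 14 of 15 types.

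Gria1 was lower in D2 in 5 neuronal types, by amounts that ranged widely. In Exc-ENT it was 636 and 654 CPM in B6 and 469 and 430 in D2 (-0.61, SE 0.08, edgeR adjusted p = 6.32e-08), and in Exc-Cdh12 511 and 430 against 320 and 341 (-0.58, SE 0.15, adjusted p = 0.0278). Markers of other types differed in the Exc-ENT columns too, with the summed CA3 list at 486 to 542 CPM in B6 and 755 to 884 in D2, the CA2 list at 56.4 to 68.8 against 26.3 to 30.1 and the oligodendrocyte list at 120 to 125 against 70.8 to 75.1, while the entorhinal list overlapped. Their part in the 5 changes in Exc-ENT was not tested. The change of Gria1 in Exc-ENT held in every setting, whereas that in Exc-Cdh12 was not called by DESeq2 or on symbols shared by the strains. In Inh-MGE and Inh-Lamp5, the cells with most Gria1, the gene was not called (-0.08, adjusted p = 0.687, and -0.16, adjusted p = 0.433). The other 3 differences were small. Exc-CA1-Galntl6 had 2828 and 2955 in B6 and 2667 and 2697 in D2 (-0.18, SE 0.04, adjusted p = 0.00351), and Exc-DG had 2352 and 2402 against 2221 and 2135 (-0.19, SE 0.06, adjusted p = 0.0209). In Exc-CA1-Fras1 the values were 1664 and 1669 against 1611 and 1543 (-0.19, SE 0.07, adjusted p = 0.037). The plain log2 ratio of the levels was smaller in these 3 types, -0.11 in Exc-CA1-Galntl6, -0.13 in Exc-DG and -0.08 in Exc-CA1-Fras1. All 17 estimates for Gria1 were below 0, but without D2 library 3 the changes in Exc-DG, Exc-CA1-Fras1 and Exc-Cdh12 were not called. That in Exc-CA1-Fras1 was also lost without either B6 library and with the replicate block, and that in Exc-Cdh12 without D2 library 2.

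Gria2 changed in 1 neuronal type, Exc-DG, with 2386 and 2474 CPM in B6 and 2274 and 2198 in D2 (-0.18, SE 0.06, edgeR adjusted p = 0.0244; plain log2 ratio of the levels -0.12), which was not called without B6 library 3 or D2 library 3. Over the neuronal types its estimates ranged from -0.18 to 0.10, the narrowest range of the set in neurons. Gria3 changed in Exc-Gpc6, with 420 and 452 CPM against 360 and 383 (-0.31, SE 0.10, adjusted p = 0.0199), a change that was not called by DESeq2, with the replicate block or without B6 library 3 or either D2 library. In Exc-Cdh12, B6 library 2 had 925 CPM and the other 3 libraries 533 to 627, and the difference was not called (-0.56, adjusted p = 0.0711).

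Gria4 was lower in D2 in 4 neuronal types. In Exc-ENT B6 had 324 and 361 CPM and D2 276 and 281 (-0.39, SE 0.09, edgeR adjusted p = 0.000411), which held in every setting, and in Exc-CA1-Galntl6 the values were 318 and 328 against 287 and 279 (-0.26, SE 0.06, adjusted p = 0.00357). Exc-CA3 had 272 and 295 against 258 and 248 (-0.23, SE 0.08, adjusted p = 0.0436), not called by DESeq2, without B6 library 3, on symbols shared by the strains or with adjustment over all cell types, and neither of the last 2 changes was called without D2 library 3. The largest difference was in Cajal-Retzius cells, 785 and 972 against 539 and 256 (-1.23, SE 0.31, adjusted p = 0.0253), which rests on 91 D2 nuclei and was not called without D2 library 3 or B6 library 3, without the filter on low counts or with the replicate block (adjusted p = 0.186). Marker levels in those columns also differed between strains. The summed Cajal-Retzius list was 5892 to 6595 CPM in B6 and 1628 to 3951 in D2, whereas the dentate granule list was 203 to 255 against 367 to 622, the astrocyte list 147 to 202 against 327 to 426 and the CGE list 352 to 387 against 628 to 865. The oligodendrocyte list was lower in D2, 249 to 352 against 105 to 154. The part of these differences in the change of Gria4 was not tested. In the interneurons, where Gria4 was highest, the gene was not called in any type.

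Of the TARPs, Cacng3 was lower in D2 in 4 excitatory types. In Exc-CA1-Fras1 it was 115 and 111 CPM in B6 and 68.0 and 91.0 in D2 (-0.63, SE 0.12, edgeR adjusted p = 0.000141), a change present in every setting. Exc-CA3 had 25.5 and 25.3 against 19.3 and 10.2 (-0.80, SE 0.21, adjusted p = 0.00641), Exc-ENT had 51.0 and 53.4 against 43.9 and 40.5 (-0.39, SE 0.13, adjusted p = 0.0205), and Exc-Gpc6 had 118 and 121 against 92.3 and 103 (-0.38, SE 0.13, adjusted p = 0.0266). DESeq2 did not call these 3, and none of them was called without D2 library 3. Those in Exc-ENT and Exc-Gpc6 were also lost without B6 library 3, and that in Exc-Gpc6 without D2 library 2 and with the replicate block. In another CA1 type, Exc-CA1-Camk2d, the libraries overlapped, with 62.5 and 125 CPM in B6 and 90.1 and 125 in D2.

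Cacng8 was lower in D2 in Exc-DG, with 185 and 171 CPM against 161 and 157 (-0.23, SE 0.08, edgeR adjusted p = 0.0314), and in Exc-ENT, with 92.1 and 82.7 against 73.7 and 75.8 (-0.32, SE 0.11, adjusted p = 0.0224), neither of them called by DESeq2 or without either D2 library or B6 library 2. Cacng2 and Cnih2 changed in no neuronal type. Cacng4 changed in none of the 11 types tested, and in OPC, where it was highest, B6 had 344 and 339 CPM and D2 395 and 399 (0.19, SE 0.11, adjusted p = 0.274). Its libraries did not overlap in OPC, but the difference did not pass the test.

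In the non-neuronal types the differences were larger, with a median of -0.58 over 40 tests against -0.11 over the 113 neuronal tests. Gria1 was 226 and 250 CPM in B6 astrocytes and 120 and 101 in D2 (-1.06, SE 0.11, edgeR adjusted p = 3.6e-10). In oligodendrocytes the values were 176 and 169 against 95.2 and 65.8 (-1.04, SE 0.16, adjusted p = 1.32e-05), in microglia 369 and 237 against 92.9 and 134 (-1.35, SE 0.23, adjusted p = 0.000508) and in VLMC 252 and 268 against 134 and 101 (-1.08, SE 0.25, adjusted p = 0.0029). The changes in astrocytes, oligodendrocytes and microglia were called in every setting, whereas that in VLMC was not called by DESeq2 or without D2 library 3 or B6 library 3. In OPC the difference was smaller, 158 and 188 against 150 and 137 CPM (-0.31, adjusted p = 0.0962).

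Some neuronal transcripts were also lower in D2 in these types. The markers used are those of the lists for all neurons and for excitatory types, without the inhibitory list. Of 6 neuronal markers (Snap25, Syt1, Rbfox3, Slc17a7, Camk2a and Neurod2), 28 tests passed the filter in the 5 non-neuronal types, 11 were lower in D2 and 0 higher, and the estimates ranged from -1.14 to 0.07 with a median of -0.58. Lower markers numbered 4 of 6 in astrocytes, 2 of 6 each in oligodendrocytes, microglia and OPC, and 1 of 4 in VLMC. Their levels in astrocytes were 5.17 to 36.4% of the excitatory mean, and Gria1 there was at 11.6%. In the other 4 types the markers were at 6.05 to 37.0% (oligodendrocytes), 11.0 to 64.0% (microglia), 4.60 to 35.3% (OPC) and 5.54 to 33.8% (VLMC), and Gria1 at 8.42 to 13.8%. The part of these neuronal transcripts in the strain differences of the non-neuronal types was not tested.

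Some genes stood above every neuronal marker on that scale. These were Gria2 in astrocytes (95.8% of the excitatory mean), Gria4 in oligodendrocytes (47.2%), and Gria2, Gria3 and Gria4 in OPC (78.8, 71.2 and 171%), with Cacng8 in astrocytes and OPC and Cacng4 and Cnih2 in all 5 types. For Cacng4 the excitatory levels are themselves low, at most 11.3 CPM. Its percentage was 125 ± 134 in microglia (0 to 291, 11 counts) and 49.1 ± 45.6 in oligodendrocytes (0 to 110, 15 counts). In astrocytes its level was 4.80 CPM, so its place in these 3 types is uncertain. Gria2 in astrocytes and Gria2, Gria3 and Gria4 in OPC did not change between strains, whereas Gria4 in oligodendrocytes was 286 and 321 CPM in B6 and 204 and 208 in D2 (-0.50, SE 0.12, edgeR adjusted p = 0.00435), which was lost without D2 library 2. Cnih2 in astrocytes was 25.4 and 21.7 against 16.7 and 12.5 (-0.65, SE 0.22, adjusted p = 0.0244), not called by DESeq2, without D2 library 3 or B6 library 2, or without the filter on low counts.

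The only gene that was higher in D2 was Cacng8 in microglia, where B6 had 27.6 and 24.6 CPM and D2 57.2 and 59.8 (1.19, SE 0.32, edgeR adjusted p = 0.0235). It was not called by DESeq2 or without D2 library 3 or B6 library 3. In the same cells Gria2 was 523 and 461 against 288 and 371 (-0.54, SE 0.15, adjusted p = 0.0261) and Gria3 164 and 137 against 54.8 and 88.0 (-1.01, SE 0.24, adjusted p = 0.00968). DESeq2 called neither, and without D2 library 2 both were lost, as was Gria2 without B6 library 2. The estimate of Cacng8 thus lay in the other direction from those of the 2 subunits and from the neuronal markers in microglia.

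The remaining changes in non-neuronal types were all decreases. In oligodendrocytes Gria2 was 334 and 363 against 271 and 170 CPM (-0.60, SE 0.15, edgeR adjusted p = 0.00449), Gria3 75.5 and 99.0 against 53.2 and 40.6 (-0.85, SE 0.18, adjusted p = 0.000994), Cacng3 9.89 and 16.1 against 3.75 and 5.60 (-1.42, SE 0.43, adjusted p = 0.0205; 19 and 41 counts against 5 and 8, so that it was tested only through B6) and Cacng8 19.3 and 24.4 against 11.2 in both D2 libraries (-0.91, SE 0.31, adjusted p = 0.0411). In astrocytes Gria3 was 68.0 and 86.3 against 46.9 and 30.2 (-0.96, SE 0.16, adjusted p = 4.54e-06), Gria4 42.0 and 42.2 against 30.5 and 22.7 (-0.62, SE 0.17, adjusted p = 0.00455) and Cacng2 10.7 and 7.99 against 6.45 and 3.05 (-0.94, SE 0.36, adjusted p = 0.0476). Gria4 in VLMC was 63.1 and 95.1 against 35.4 and 27.0 (-1.32, SE 0.38, adjusted p = 0.0201). Of these 8 changes, DESeq2 called Gria2 in oligodendrocytes and Gria3 in astrocytes. Without D2 library 3 the changes of Gria2, Cacng3 and Cacng8 in oligodendrocytes, Gria4 and Cacng2 in astrocytes and Gria4 in VLMC were not called. Cacng3 and Cacng8 in oligodendrocytes were also lost without D2 library 2 or B6 library 3, Gria4 in VLMC without B6 library 3, and Cacng8 with the replicate block (adjusted p = 0.0525). The change of Cacng2 in astrocytes was the least stable of the 8, called in 3 of 10 other settings and lost without B6 library 2 and on symbols shared by the strains (adjusted p = 0.07).

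**Figure D5:**
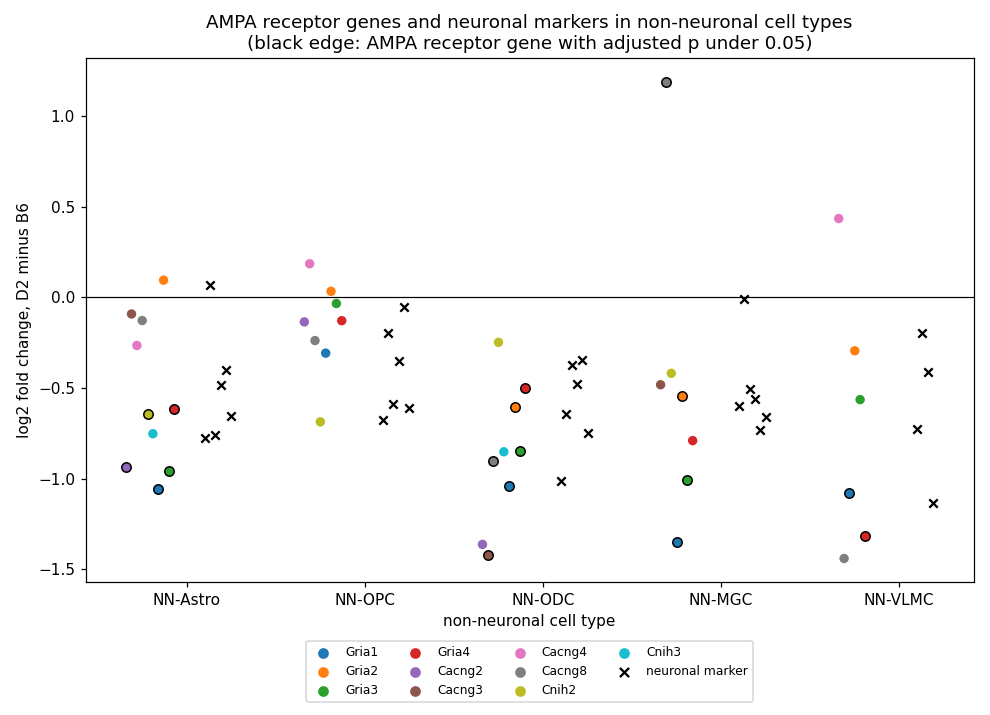
Log2 fold change, D2 minus B6 (y axis), of the AMPA receptor genes that were tested in each non-neuronal type (coloured points, black edge where the adjusted p was under 0.05) and of 6 neuronal markers (crosses). Most points and crosses lie below 0, and Cacng8 in microglia, at 1.19, is the highest point.

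Whether the strain difference of a gene differed between cell types was tested in 1 model over all columns, with library as a block. It did for 4 of the 10 genes, Gria1 (edgeR adjusted p = 1.76e-07), Gria4 (adjusted p = 2.98e-06), Gria3 (adjusted p = 3.27e-05, but 0.0583 without D2 library 3) and Cacng8 (adjusted p = 0.00199, but 0.382 without B6 library 3 and 0.159 without D2 library 3), where 15.2% of the 21050 transcripts tested did. Cacng3 (adjusted p = 0.069) and Gria2 (adjusted p = 0.0699) did not pass. Without the 5 non-neuronal types, an alternative chosen after seeing the data, only Gria4 passed (adjusted p = 3.17e-05), while Gria1 (adjusted p = 0.0872) and Gria3 (adjusted p = 0.0764) did not, where 7.50% of transcripts did.

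A list of 38 partners of the receptor, such as scaffolds, pentraxins, other auxiliary subunits and biogenesis factors, gave 558 tests. Of these, 28 were higher and 92 lower in D2, with a median log2 fold change of -0.13, and 21.5% changed, against 22.1% of all transcript tests. On symbols counted in both strains the share was 20.3% (113 of 557 tests), against 14.6%. Lrrtm4, a postsynaptic adhesion protein, was lower in 13 of 17 types (median -0.42), and Dlg2, a scaffold of the postsynaptic density, in 11 of 17 (median -0.30). Pick1, which binds subunit tails, was lower in 9 of 16 types (median -0.62), and the pentraxin receptor Nptxr and the auxiliary subunit Shisa9 in 8 of 17 each. Grip1, which binds subunit tails too, changed in 7 of 17, in 6 of them lower and in 1 higher in D2. Olfm3, a secreted glycoprotein, also changed in 8 of 13 types, but in 4 it was higher and in 4 lower in D2. In the other direction, Cnih4, another cornichon homolog, was higher in 4 of 17 types (median 0.47) and Nrn1 in 4 of 16. The strain difference differed between cell types for 17 of the 38 partners, where 15.2% of all transcripts passed this interaction test.

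Accessibility of the promoters was measured in the snATAC-seq libraries of 15 cell types, which did not include Cajal-Retzius cells or VLMC. The peaks within 1 kb of an annotated start numbered 12 for the 10 genes, among 300819 peaks on mm10. Columns held 278059 to 27815541 counts. Of 175 tests of promoter peaks, 1 changed between strains (14 had an unadjusted p under 0.05), where 2.73% of all peak tests did. This was Cacng4 in Exc-Gpc6, at the peak chr11:107793148-107795053, with 9.57 and 11.9 CPM in B6 and 16.7 and 17.1 in D2 (0.66, SE 0.20, edgeR adjusted p = 0.0351). It was not called when B6 library 2 or 3 or D2 library 3 was left out. The peak over the Cnih3 start, chr1:181351951-181354449, which contains the sequence printed above, had estimates above 0 in 14 of 15 types, with a median of 0.20, and none was called. The lowest adjusted p was 0.0971, in Exc-CA1-Galntl6 (0.24, 95% interval 0.07 to 0.41), where the transcript estimate was -0.50.

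Across the 15 types, the mean promoter level followed the mean transcript level for some genes and not for others. Points share libraries and depth, so the correlations are descriptions. On the log2(CPM + 1) scale Pearson's r was 0.90 for Gria4, 0.89 for Gria3, 0.86 for Cacng4, 0.72 for Cnih3, 0.71 for Gria1, 0.54 for Cacng8 and 0.53 for Gria2 and Cacng3. It was -0.05 for Cnih2 and -0.03 for Cacng2. For Cacng2 it was 0.94 over the 11 neuronal types, and the promoter was most accessible in astrocytes (43.4 CPM), where the transcript was at 7.06 CPM.

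Likeness of pattern was measured by Pearson's r of log2(mean CPM + 1) over the 17 types among 12522 symbols, and the 3 most alike symbols are given for each gene. Cacng8 and Cacng2 were most like transcripts that overlap them on the other strand, Gm44151 (0.98, chr7:3391596-3400926) and A730060N03Rik (0.97, chr15:78119706-78144142), for which shared reads cannot be told apart. Next were Serpina10 (0.88) and Ola1 (0.88) for Cacng8, and Rgs8 (0.93) and Vwa5b2 (0.93) for Cacng2. Gria1 was most like Gm26749 (0.94), Flvcr1 (0.92) and Fgf10 (0.90). Gria2 was most like Apba2 (0.95), 1700110K17Rik (0.94) and 4930545L23Rik (0.94). For Gria3 the closest were Ttc7b (0.91), Grm5 (0.91), a metabotropic glutamate receptor, and Timm44 (0.89), and for Gria4 they were Gng3 (0.90), Scg5 (0.89) and Atcay (0.89). Cacng3 was closest to Dcaf7 (0.91), Sncb (0.91) and Slc12a5 (0.90), and Cacng4 to Ntn1 (0.87), Tmem263 (0.86) and Mapk9 (0.85). Cnih2 had the lowest values, with 2010009K17Rik (0.79), Myo5b (0.76) and Col25a1 (0.73), and Cnih3 was closest to Ryr1 (0.87), an intracellular calcium channel, Kcnk9 (0.85) and Dapk1 (0.85). Within the set the closest pairs were Gria2 with Cacng8 (0.80) and Gria1 with Cacng8 (0.78).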

How the data were processed

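The authors deposited raw counts summed over the nuclei of each cell type in each library, for snRNA-seq transcripts and for snATAC-seq peaks, together with the number (count) of nuclei behind each column. Before that they aligned reads with Cell Ranger 6.0.2 (introns kept) and Cell Ranger ATAC 2.0.0, to mm10 for B6 and to an mm10 in which D2 SNPs had been substituted for D2, filtered and clustered nuclei in Seurat 4.0.5, removed doublets and called peaks. These versions and the build are in the submitters' processing notes. What the 2 genomes do to the counts was not tested.

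Strain differences (D2 minus B6) were tested in each cell type with edgeR 4.0.16 in R 4.3.3 (TMM, filterByExpr, quasi-likelihood F test, Benjamini-Hochberg over all features of that type, threshold 0.05). Peaks needed at least 10 counts over the 4 libraries. The standard error of a fold change was derived from its F value, and intervals are 95% and normal. The test across cell types used a library block and the dispersion estimated inside glmQLFit. With 2 libraries a strain, p-values measure the spread between pools of about 2 animals. Levels are CPM over symbols counted in both strains. Promoter peaks lay within 1 kb of an annotated start. DESeq2 1.42.0, other scalings and filters, a replicate block and leaving out each library were tried, and scripts were tested on simulated data. Tables held 0 columns of samples outside the series.

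All 10 genes were examined in every cell type and are described in full where they changed, with the partners that changed in the most types, Cnih4 and Nrn1 as those higher in D2 in the most types without a decrease, and the 3 symbols most alike (at least 20 CPM in 1 or more types). The genes, the partner list and the marker lists were chosen with earlier results of these data known.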

Additional observations from a re-analysis of the deposited data

Results flagged for a closer look

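The strain difference differed between the 17 cell types for 4 genes, by edgeR's quasi-likelihood test of all 16 strain by cell type terms with adjustment over 21050 transcripts. The adjusted p was 1.76e-07 for Gria1, 2.98e-06 for Gria4, 3.27e-05 for Gria3 and 0.00199 for Cacng8. Estimates of log2 fold change, D2 minus B6, ranged over cell types from -1.35 to -0.08 for Gria1, from -1.32 to 0.10 for Gria4, from -1.01 to 0.16 for Gria3 and from -1.44 to 1.19 for Cacng8. The lowest value of Cacng8, in VLMC, was not called, and the gene was tested there only through the B6 libraries. Lower neuronal markers in D2 accompanied the lowest values of Gria1 and Gria3, both in microglia (2 of 6 markers), and of Gria4 and Cacng8, both in VLMC (1 of 4), and their part in the result was not tested.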

How the results depend on the processing

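Of the 42 strain differences, all kept their sign in every setting and 11 were called in every setting (Gria1 in Exc-CA1-Galntl6, Exc-ENT, astrocytes, oligodendrocytes and microglia, Cnih3 in Exc-DG, Exc-CA1-Galntl6 and Exc-CA1-Fras1, Cacng3 in Exc-CA1-Fras1, Gria4 in Exc-ENT and Gria3 in astrocytes). DESeq2 called 18. Leaving out 1 library gave 19 to 42 calls, with 42 without B6 library 2, 35 without B6 library 3, 31 without D2 library 2 and 19 without D2 library 3, of which 36, 28, 28 and 18 were among the 42. Over all transcripts in Exc-DG the calls in these settings were 6461, 6123, 5242 and 4679, against 6382 with all libraries. Without D2 library 3 they fell in every type. The cause was not tested. Relative log expression scaling gave 41, no filter 42, symbols counted in both strains 39 and adjustment over all cell types 42. In neurons alone there were 25 of 113 tests, for which the share of all transcripts is given by type above.

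Genes whose strain difference differed between cell types numbered 4, and 2 to 7 when 1 library was left out (2 without D2 library 3, 7 without D2 library 2). The number was 6 with types of at least 500 nuclei or without a filter and 1 without non-neuronal types, a setting chosen after seeing the data. The 1 promoter change became 2 with at least 50 counts, 2 with the replicate block and 0 to 1 when 1 library was left out. Of the 30 most alike symbols, 11 remained among the 3 nearest by Spearman correlation and 5 over neuronal types only. The 5 genes higher in excitatory types became 6 without D2 library 3, and the mean Gria2 share of Gria counts ranged from 45.2 to 46.6%. Among the remaining values, 1476 kept their direction and side of the threshold, 22 passed it only in the alternative, 96 no longer passed it and 0 reversed.

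Whether libraries with the same number share more than the number is not given in the labels. Their deviations correlated at -0.17 to 0.07 over cell types (median -0.06). With 2 libraries a strain this cannot settle whether they form pairs. With the replicate block 37 of the 42 were called. In the 4 types with a correlation under -0.1, calls numbered 8 without a block, 7 with it and 11 with crossed numbers, which brought the total to 45, a setting chosen after seeing the data.

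Depth limits the thin columns most, since 17 pairs could not be tested and Cajal-Retzius cells had 91 D2 nuclei. Levels of a few CPM, such as Cacng4 in excitatory types, rest on few counts. With 2 libraries a strain, 1 library can decide a call.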
